A study of Mus musculus with 3 samples.

Results

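The genes described here are 7 members of the Bcl2 family, the proteins that decide at the mitochondrion whether a cell lives or dies, in thymus sections of *Trp53*-/- and WT mice. They were taken by name, as 7 of the 54838 genes in the count matrices, by a rule that uses no measured value, although earlier results of these data were known when the family was chosen. The family works by binding among its own members. *Bcl2*, *Bcl2l1* (Bcl-xL) and *Mcl1* encode proteins that hold back death, *Bcl2l11* (Bim), *Bid* and *Bad* encode BH3-only proteins that relay death signals by binding them, and *Bak1* encodes an effector that opens the outer mitochondrial membrane. In the thymus the protective proteins are used stage by stage. Double-positive thymocytes of the cortex rely on Bcl-xL, mature thymocytes of the medulla rely on Bcl-2 under signals from the IL-7 receptor, and Mcl-1 is needed throughout. Bim carries out much of the deletion of self-reactive thymocytes.

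The study followed tissues of mice without p53 to ask how cells change before tumours form, and its spatial part compared thymus sections from KO and WT mice, laid on slides that carry barcoded spots at a spacing of 4.8 µm. Counts are of unique molecular identifiers (UMIs), so copies made by PCR were merged. All 3 mice were female C57BL/6 mice perfused with PBS. The KO mice, genotype *Trp53*-/-, were KO1134 at an age of 17 weeks and KO1308 at 21 weeks, and the WT mouse, genotype *Trp53*+/+, was 17 weeks old. Each mouse gave 1 section, and the sections are called KO1308, KO1134 and WT. The deletion is in the germline and every cell type of a KO section carries it, and KO1308 differs from WT in age as well as in genotype.

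The sections held 21089885 to 41581477 UMIs. The spots of each 27 µm square were pooled into a bin, and bins with at least 300 detected genes that lay over tissue were kept. Cortex and medulla were drawn from genes of the epithelium in the 7 × 7 bins around each bin, with 4 cortical genes such as *Psmb11* and 11 medullary genes such as *Aire*, none of them a member. A bin was CD3-positive when it held at least 1 UMI of *Cd3d*, *Cd3e* or *Cd3g*. This left 7465 of 16243 kept bins in KO1308, 6581 of 12022 in KO1134 and 18938 of 27101 in WT. Levels are UMIs of a gene scaled to the total UMIs of these bins (CPM), and intervals in brackets are exact 95% intervals that cover counting error only. A bin covers several cells of different kinds. Fewer cells of a type and less RNA per cell therefore cannot be told apart in any value below.

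**Figure D1:**
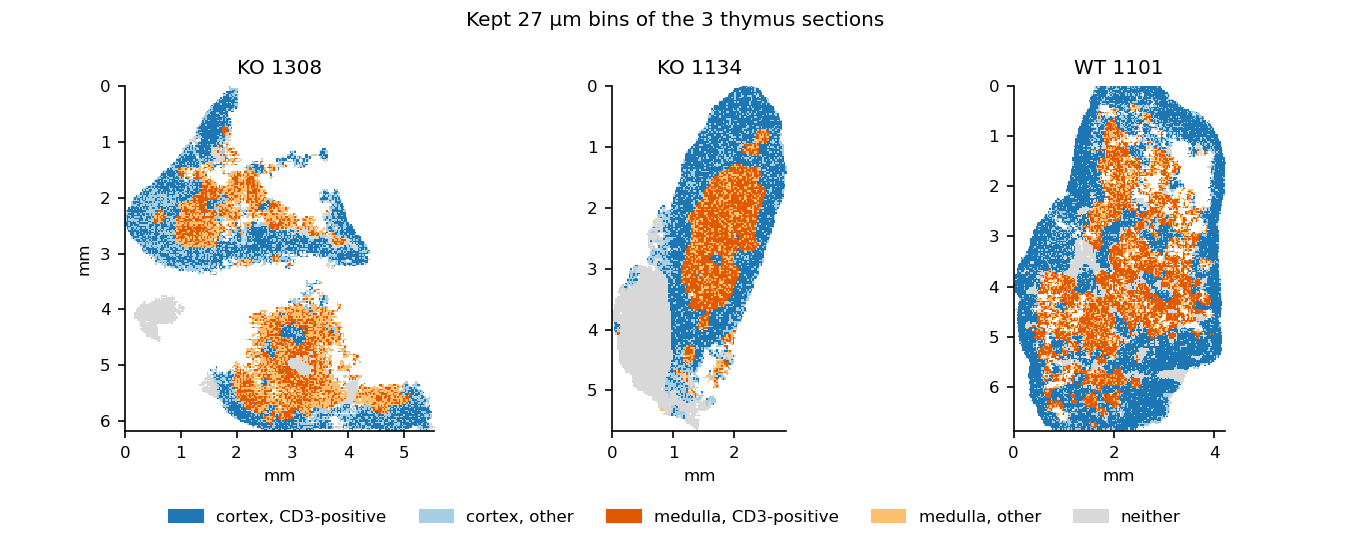
Kept 27 µm bins of the 3 sections, with both axes in mm. Blue marks cortex and orange medulla, in dark shades where a bin was CD3-positive, and grey marks bins in neither area. The medulla lies inside a rim of cortex in KO1134, and in WT and KO1308 it is broken into islands.

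The map of the sections shows where these bins lie. *Trp53*, the deleted gene, was at 22.6 CPM in cortex of KO1308, 13.1 in KO1134 and 82.0 in WT. In medulla it was at 32.7, 17.4 and 81.4 CPM in the same order. Both KO sections were lower than WT in both areas, as their labels state, and the deleted exons are not given in the sources used here, so the UMIs that remain cannot be placed. Genes of immature thymocytes, a list of 8 such as *Rag1* and *Ptcra*, summed to 2585 CPM in cortex of KO1308, 864 in KO1134 and 3892 in WT. Genes of mature thymocytes, a list of 5 such as *Ccr7* and *S1pr1*, summed to 282, 685 and 182 CPM there, and to 615, 669 and 522 CPM in medulla. Cortex and medulla of KO1134 were thus close in the mature list. Plasma cell genes were at 963 and 538 CPM in cortex of KO1308 and KO1134 against 212 in WT, and adipocyte genes were at 479 and 304 CPM against 98.3. All genes of these lists were detected in each area of each section. The part of these cell types in the results below was not tested.

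All 7 members were detected in both areas of every section, from 59 UMIs of *Bak1* in medulla of KO1308 to 7446 UMIs of *Mcl1* in cortex of WT. Across the sections, *Bcl2l1*, *Mcl1* and *Bcl2l11* were lower in KO1134 than in WT by more than the counting intervals in both areas, with *Bcl2l1* furthest from WT. In KO1308 *Mcl1* and *Bcl2l11* were likewise lower than in WT in both areas, and *Bcl2l1* was lower in medulla only. Between the areas, *Bcl2* and *Mcl1* were higher in medulla and *Bid* was lower. *Bad* and *Bak1* had intervals that spanned the WT level in medulla of both KO sections.

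**Figure D2:**
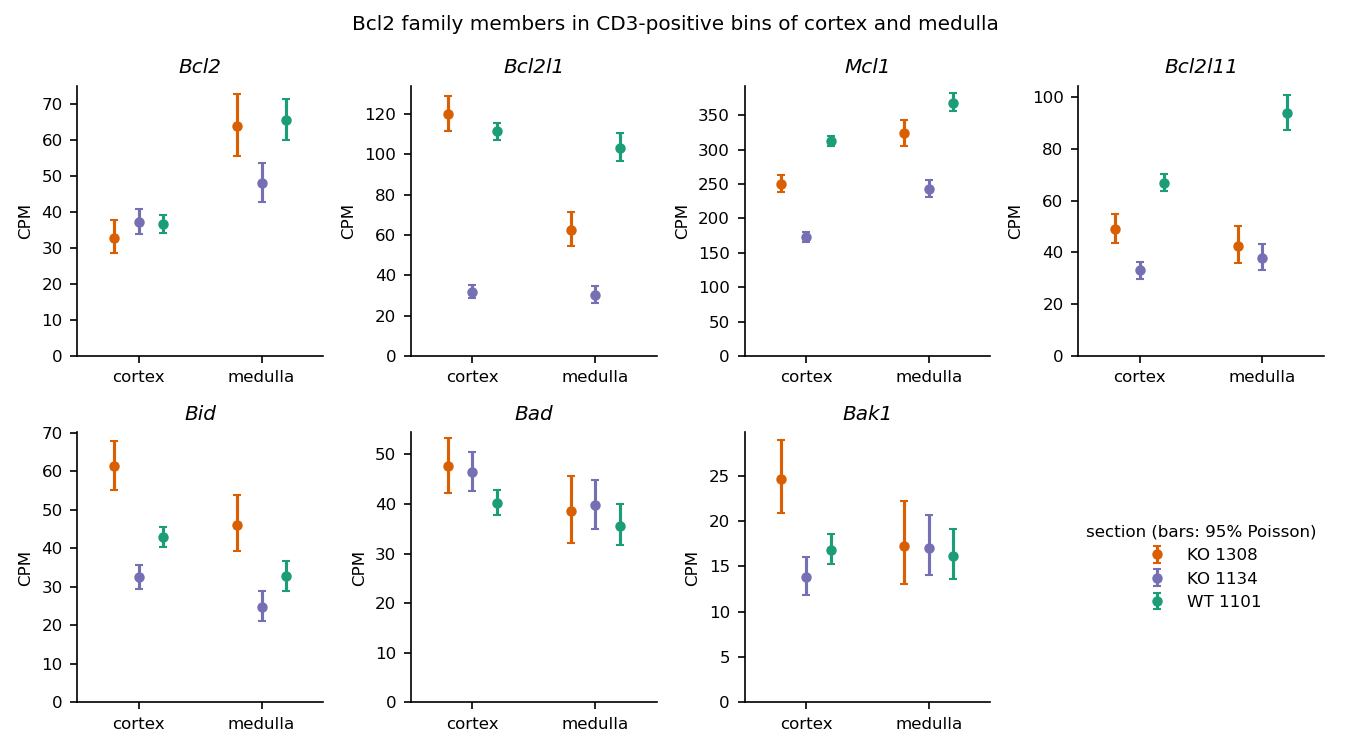
Level of each member in CPM (vertical axes, from 0) in CD3-positive bins of cortex and medulla, 1 point per section with its exact 95% Poisson interval. *Bcl2l1* of KO1134 lies near 30 CPM in both areas, far under the other sections, and *Bcl2* is higher in medulla than in cortex in each section.

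*Bcl2*, which keeps mature T cells alive, stood at 32.9 CPM (28.5 to 37.7) in cortex of KO1308. The cortex of KO1134 had 37.2 CPM (33.9 to 40.8) and that of WT 36.6 CPM (34.3 to 39.2). These intervals overlapped, and the ratios to WT of 0.897 (0.767 to 1.05) and 1.02 (0.906 to 1.14) both spanned 1. In medulla *Bcl2* was at 63.9 CPM (55.7 to 72.9) in KO1308, 48.1 CPM (42.8 to 53.8) in KO1134 and 65.6 CPM (60.2 to 71.4) in WT. Here KO1134 lay under the other sections, with a ratio to WT of 0.732 (0.634 to 0.844). The rise from cortex to medulla was 1.94-fold (1.60 to 2.36) in KO1308, 1.29-fold (1.11 to 1.495) in KO1134 and 1.79-fold (1.61 to 1.996) in WT.

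*Bcl2l1*, the survival gene of double-positive thymocytes, separated the KO sections. In cortex it was at 119.9 CPM (111.5 to 128.9) in KO1308, 31.7 CPM (28.7 to 35.0) in KO1134 and 111.5 CPM (107.3 to 115.8) in WT. KO1308 and WT overlapped, whereas KO1134 was lower, at 0.284 of WT (0.255 to 0.316) and 0.265 of KO1308 (0.233 to 0.299). In medulla the levels were 62.7 CPM (54.6 to 71.7) in KO1308, 30.2 CPM (26.1 to 34.8) in KO1134 and 103.4 CPM (96.6 to 110.6) in WT. No 2 of these intervals overlapped, and the ratios to WT were 0.606 (0.520 to 0.705) and 0.292 (0.248 to 0.342).

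*Bcl2l1* lies on chromosome 2 from 152780668 to 152831728 (minus strand, GENCODE M21, GRCm38), and RefSeq (GRCm38.p6) gives it 3 promoters of 300 bases in the table used. All 7 members matched that table, with 11 promoters among its 32851. The letters TTCNNNGAA, which Stat5 binds downstream of the IL-7 receptor, occur on either strand in 8.30% of all promoters and were in 0 of the 11, which says only that these letters are not in these windows.

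*Mcl1*, whose short-lived product is needed at every stage of T cell life, was at 250.7 CPM (238.3 to 263.4) in cortex of KO1308, 172.6 CPM (165.3 to 180.1) in KO1134 and 313.0 CPM (305.9 to 320.1) in WT. In medulla the 3 levels were 324.0 (305.2 to 343.7), 243.2 (231.1 to 255.6) and 368.5 (355.6 to 381.8). The order was the same in both areas, with WT highest and KO1134 lowest and no overlap of intervals. The ratios to WT in cortex were 0.801 (0.758 to 0.846) for KO1308 and 0.551 (0.525 to 0.579) for KO1134. In medulla they were 0.879 (0.820 to 0.942) and 0.660 (0.620 to 0.702). With areas drawn from thymocyte genes the medulla ratios were 0.904 for KO1308 and 0.905 for KO1134.

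Among the BH3-only genes, *Bcl2l11* was lower in both KO sections. The cortex had 48.8 CPM (43.5 to 54.7) in KO1308, 33.0 CPM (29.9 to 36.4) in KO1134 and 66.9 CPM (63.6 to 70.2) in WT. The medulla had 42.6 CPM (36.0 to 50.1) in KO1308, 37.9 CPM (33.3 to 43.1) in KO1134 and 93.9 CPM (87.4 to 100.7) in WT. WT lay above both KO sections in each area without overlap, and the KO sections overlapped each other in medulla. Ratios to WT were 0.730 (0.644 to 0.826) and 0.494 (0.442 to 0.551) in cortex and 0.454 (0.377 to 0.542) and 0.404 (0.348 to 0.468) in medulla for KO1308 and KO1134. Bim is induced when a thymocyte's receptor is strongly engaged, a stimulus that also induces *Egr1* and *Nr4a3*. *Egr1* was at 53.8 CPM in cortex of KO1308, 21.0 in KO1134 and 129 in WT, and at 84.3, 45.7 and 215 CPM in medulla. *Nr4a3* was at 6.61, 4.22 and 12.9 CPM in cortex and at 16.3, 19.9 and 33.8 CPM in medulla. As for *Bcl2l11*, WT was the highest section for both genes in both areas. The part of receptor engagement in the levels of *Bcl2l11* was not tested.

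*Bcl2l11* starts at 128126038 on chromosome 2 (plus strand, GENCODE M21, GRCm38). Of its 2 RefSeq promoters (GRCm38.p6), the one at chr2:128125788-128126087 is shown because it holds letters bound by factors that act on this gene, Foxo (GTAAACA) and Egr1 (GCGGGGGCG). It runs 5′ to 3′, with the matches, at positions 24 and 201, in capitals.
Bcl2l11 promoter: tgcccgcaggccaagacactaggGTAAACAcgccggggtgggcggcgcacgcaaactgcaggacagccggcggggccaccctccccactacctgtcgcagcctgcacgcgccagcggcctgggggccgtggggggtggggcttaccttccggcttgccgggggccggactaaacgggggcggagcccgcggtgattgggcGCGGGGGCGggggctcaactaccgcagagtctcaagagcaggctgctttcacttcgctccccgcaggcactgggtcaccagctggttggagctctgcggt
On either strand, the Foxo letters occur in 3.65% and the Egr1 letters in 2.91% of the 32851 promoters, and no other member promoter held either.

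*Bid*, the BH3-only gene whose product caspase-8 cleaves, went in opposite directions in the KO sections. In cortex it was at 61.3 CPM (55.2 to 67.7) in KO1308, 32.5 CPM (29.4 to 35.8) in KO1134 and 42.9 CPM (40.3 to 45.6) in WT. In medulla *Bid* was at 46.1 (39.2 to 53.9), 24.8 (21.1 to 29.0) and 32.7 (28.9 to 36.8) CPM in that order. KO1308 lay above WT in both areas, at 1.43 (1.27 to 1.61) and 1.41 (1.15 to 1.72) times its level. KO1134 lay under WT, at 0.757 (0.673 to 0.851) and 0.759 (0.620 to 0.927), although its bins thinned to 500 UMIs gave 1.05 in medulla, from 14 UMIs. It was not below WT either when bins were grouped by genes of immature thymocytes, with values given at that split.

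*Bad*, whose product is held inactive by growth factor signals, lay between 35.6 and 47.6 CPM. The cortex of KO1308 had 47.6 CPM (42.3 to 53.3), that of KO1134 46.4 CPM (42.7 to 50.4) and that of WT 40.2 CPM (37.7 to 42.8). The medulla had 38.5 CPM (32.2 to 45.7) in KO1308, 39.7 CPM (34.9 to 44.9) in KO1134 and 35.6 CPM (31.6 to 39.9) in WT. All 3 sections overlapped in medulla, and in cortex the ratios to WT were 1.18 (1.04 to 1.35) and 1.15 (1.04 to 1.28). The first of these turned to 0.893 when sections were scaled by TMM instead of by total UMIs. In medulla the ratios were 1.08 (0.874 to 1.33) and 1.11 (0.938 to 1.32), and KO1134 was at 0.575 in thinned bins, from 8 UMIs, and at 0.824 with areas drawn from thymocyte genes.

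*Bak1*, the effector, had the lowest counts. In cortex it was at 24.7 CPM (20.9 to 28.9) in KO1308, 13.8 CPM (11.8 to 16.0) in KO1134 and 16.8 CPM (15.2 to 18.5) in WT. In medulla it was at 17.2 CPM (13.1 to 22.2), 17.1 CPM (14.0 to 20.6) and 16.2 CPM (13.5 to 19.2). KO1308 was above WT in cortex, at 1.47 times (1.21 to 1.77), and the 3 sections overlapped in medulla. The medulla ratios were 1.06 (0.770 to 1.46) in KO1308 and 1.06 (0.812 to 1.37) in KO1134. With thinned bins they went to 0.744 in KO1308 and 0.843 in KO1134. With areas drawn from thymocyte genes they went to 1.24 in KO1308 and 0.634 in KO1134. The cortex ratio of KO1134, 0.820 (0.682 to 0.984), went to 1.53 with thinned bins, from 18 UMIs.

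**Figure D3:**
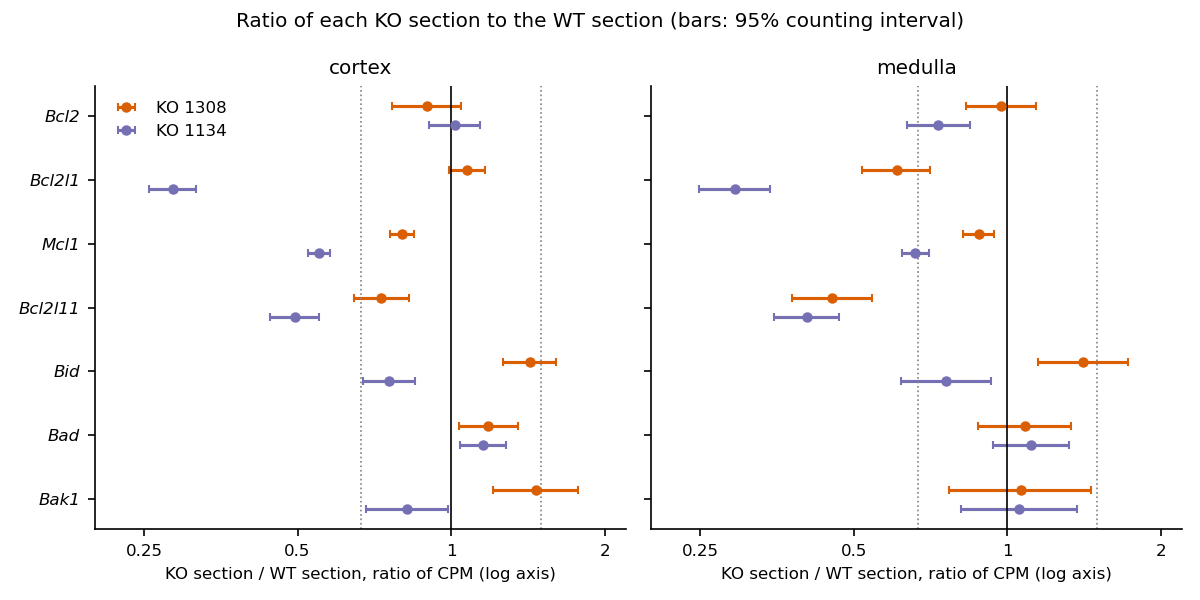
Ratio of each KO section to the WT section for each member (horizontal log axis) in cortex and medulla, with exact 95% counting intervals. Dotted lines mark 1.5-fold in either direction. Points left of the lower line are *Bcl2l1*, *Mcl1* and *Bcl2l11* of KO1134 in both areas and *Bcl2l1* and *Bcl2l11* of KO1308 in medulla, and the *Bad* point of KO1308 in cortex moves to 0.893 under TMM scaling.

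Read against all genes, the members of KO1134 had a lower median ratio in both areas, while the medians of KO1308 lay close to those of all genes. With 1 WT section no test between genotypes was possible, so a ratio was called past 1.5-fold or not, among genes with at least 30 UMIs in either section. In cortex of KO1308, 0 of the 7 members were past 1.5-fold higher, where 26.6% of all genes were, and 0 were past it lower, where 10.5% were. In cortex of KO1134, 0 were past it higher (24.7% of all genes) and 3 lower (20.9%). In medulla of KO1308, 0 were past it higher (23.5%) and 2 lower (17.0%), and in medulla of KO1134, 0 were past it higher (22.0%) and 3 lower (19.9%). The median ratio of the members was 1.08 and 0.757 in cortex and 0.973 and 0.732 in medulla, for KO1308 and KO1134. Over all genes it was 1.11 and 1.01 in cortex and 1.02 and 0.962 in medulla. *Bcl2l1* of KO1134 was lower than all but 2.98% of genes in cortex and 2.19% in medulla. *Bcl2l11* was lower than all but 4.67% and 4.42% of genes in medulla of KO1308 and KO1134. Both KO sections are set beside the same WT section, so the columns of ratios are not independent of each other.

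Scaling by TMM, which sets the bulk of genes level, divides every ratio to WT by 1.33 in cortex of KO1308, 1.12 in cortex of KO1134, 1.13 in medulla of KO1308 and 1.03 in medulla of KO1134. On that scale *Bid* of KO1308 was at 1.08 of WT in cortex and 1.24 in medulla, and *Bak1* of KO1308 at 1.11 in cortex. *Bcl2l1* and *Bcl2* of KO1308 in cortex, whose intervals span 1 in CPM, were at 0.811 and 0.677, and *Mcl1* there at 0.604. The lower ratios of *Bcl2l1*, *Mcl1* and *Bcl2l11* in KO1134 were 0.254, 0.493 and 0.442 in cortex.

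The question of which area holds each member was tested in the 3 sections together. UMIs were summed per section and area, and edgeR's quasi-likelihood test with Benjamini-Hochberg adjustment compared medulla with cortex with the section as a block. Of 18069 genes tested, 18.7% were called higher and 11.8% lower in medulla at an adjusted p of 0.05. Of the 7 members, 2 were called higher and 1 lower. *Bcl2* was higher in medulla by 0.68 ± 0.13 on the log2 scale (SE, 3 sections, adjusted p = 0.00138, edgeR), with the same direction in 3 of 3 sections. *Mcl1* was higher by 0.33 ± 0.11 (adjusted p = 0.0359, edgeR), again in 3 of 3 sections. *Bid* differed by -0.44 ± 0.12 (adjusted p = 0.0135, edgeR) and was lower in 3 of 3 sections, at 0.752, 0.765 and 0.763 of the cortex level in KO1308, KO1134 and WT.

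The call of *Bcl2* held without any 1 section, with adjusted p of at most 0.0373 in edgeR. That of *Mcl1* was lost without KO1308 (adjusted p = 0.135, edgeR), without KO1134 (0.302), with thinned bins (0.195), with no filter on low counts (0.160) and in DESeq2 (0.116), and held in 10 of 17 alternatives. That of *Bid* was lost without KO1308 (adjusted p = 0.0771, edgeR), without WT (0.0520) and with bins of 20 µm (0.0548), and held in 12 of 17. When areas were drawn from thymocyte genes instead of epithelial genes, edgeR called none of the 3, with adjusted p of 0.0502 for *Bcl2*, 0.211 for *Mcl1* and 0.211 for *Bid*. *Bcl2l1* missed the threshold at -0.40 ± 0.15 (adjusted p = 0.0504, edgeR) and was below cortex in 3 of 3 sections, at 0.523 (0.447 to 0.609) in KO1308, 0.952 (0.796 to 1.13) in KO1134 and 0.927 (0.858 to 1.00) in WT. It passed in 5 of the 17 alternatives, namely without KO1134 (adjusted p = 0.000996, edgeR), without WT (0.0360), with no filter on low counts (0.000748), without lymph-node-like bins (0.0470) and in DESeq2 (0.0495), and was at 0.610 without KO1308. *Bad* was at -0.27 ± 0.12 (adjusted p = 0.102, edgeR) and passed in 1 of 17 alternatives, with no filter on low counts (0.0390). *Bcl2l11* was at 0.15 ± 0.13 (adjusted p = 0.410, edgeR), with medulla at 0.872 (0.711 to 1.07) of cortex in KO1308, 1.15 (0.976 to 1.35) in KO1134 and 1.40 (1.29 to 1.53) in WT. *Bak1* was at -0.11 ± 0.18 (adjusted p = 0.687, edgeR), with medulla lower in KO1308 and WT and higher in KO1134.

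The distance of a bin to the other area gave the same genes a finer grain. In WT *Bcl2* went from 33.4 CPM in cortex over 150 µm from the medulla to 43.5 CPM within 50 µm of it, and from 55.6 CPM just inside the medulla to 77.3 CPM over 100 µm inside. In KO1308 it went from 30.4 CPM in the outermost zone to 68.7 CPM in the innermost, and in KO1134 from 35.3 to 50.2 CPM. *Bcl2* was thus highest in the deepest medulla in WT and KO1308. *Bcl2l1* of WT was flat up to 100 µm into the medulla, at 107.9 to 125.8 CPM, and was at 80.2 CPM further in. In KO1308 it was at 114.4 CPM in the last 50 µm of cortex, 78.7 CPM in the first 50 µm of medulla and 51.6 CPM in the deepest medulla. In KO1134 it stayed between 23.5 and 43.2 CPM in all 7 zones. *Mcl1* of WT climbed from 287.8 CPM in the outer cortex to 392.1 CPM at the border and was at 372.5 CPM in the deepest medulla. *Bid* of KO1308 was at 61.8 CPM in the outermost and 42.4 CPM in the innermost zone, against 43.4 and 30.4 CPM in WT.

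**Figure D4:**
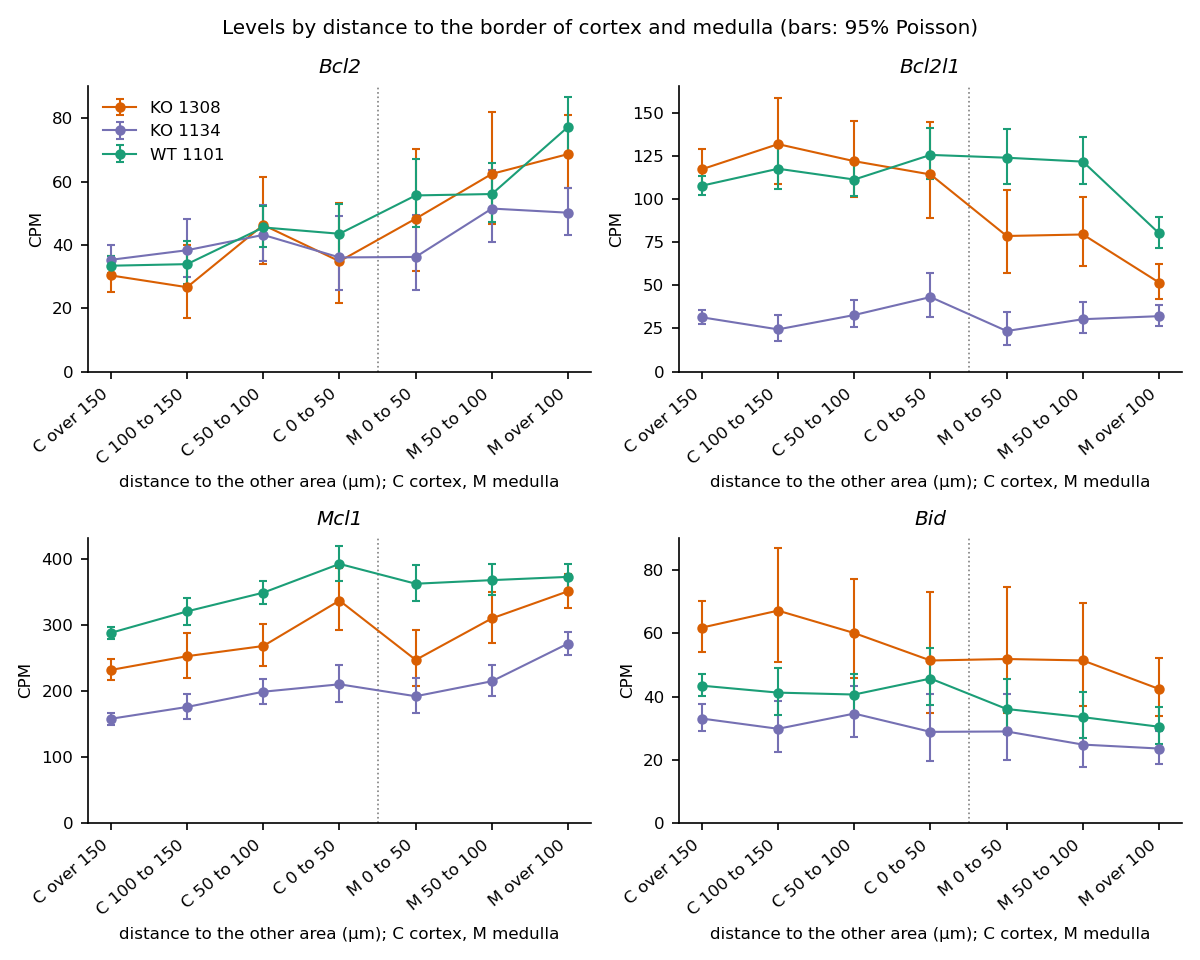
Levels of 4 members in CPM (vertical axes, from 0) in 7 zones from the outer cortex on the left to the deep medulla on the right, by distance in µm to the nearest bin of the other area, 1 line per section with 95% Poisson intervals. The dotted line is the border. *Bcl2l1* drops inside the medulla in KO1308 and WT and is flat near 30 CPM in KO1134.

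Over these 21 zones of the 3 sections, with log2 levels centred within each section, the genes most like each member were found among 11351 genes with at least 100 UMIs in each section. For *Bcl2* they were *Pkib*, *Tep1* and *C1qc* (Pearson r of 0.94, 0.93 and 0.93). For *Bcl2l1* they were *Gm45062*, *Mgea5* and *BC065403* (0.91, 0.88 and 0.88), and for *Mcl1* they were *Ids*, *Tcaf2* and *Cr1l* (0.95, 0.89 and 0.88). These r describe a shared course over zones that share libraries and depth, and carry no test. *Bid* was most like *Nudcd2*, *Gm14024* and *Fcho1* (0.93, 0.91 and 0.91), and *Bcl2l11* most like *Tlr12*, *Cd6* and *Nrde2* (0.76, 0.73 and 0.71). *Bad* was most like *Efcab8*, *AI467606* and *Zhx1* (0.83, 0.79 and 0.79), and *Bak1* most like *Dalrd3* and *Mob4* (0.76 and 0.73). Among the members themselves, *Bcl2* had an r of -0.78 with *Bid*, -0.61 with *Bcl2l1* and 0.59 with *Mcl1*.

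Because the sections differ in immature thymocytes, CD3-positive bins of both areas were also split by the share of the 8 immature thymocyte genes in the surrounding 7 × 7 bins, a split chosen after the data were seen. The groups at 500 to 1000 and at 1000 to 2000 CPM were filled in all 3 sections, but from different areas. At 500 to 1000 CPM, 100% of 401 bins in WT were medulla, against 70.0% of 1336 in KO1308 and 16.6% of 4078 in KO1134. At 1000 to 2000 CPM the share of medulla was 98.7% of 1277 bins in WT, 45.9% of 1674 in KO1308 and 0.576% of 694 in KO1134. WT medulla is thus set beside mostly KO1134 cortex here, so area and section cannot be told apart in these ratios.

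*Bcl2l1* at 500 to 1000 CPM was at 51.8 CPM in KO1308, 32.8 CPM in KO1134 and 54.2 CPM in WT. The ratio to WT was 0.955 (0.611 to 1.54) for KO1308, which spans 1, and 0.605 (0.406 to 0.938) for KO1134. At 1000 to 2000 CPM it was at 69.6, 25.3 and 78.4 CPM, with ratios of 0.889 (0.682 to 1.16) and 0.323 (0.229 to 0.451). *Bcl2l11* had ratios to WT of 0.433 (0.299 to 0.633) in KO1308 and 0.326 (0.242 to 0.448) in KO1134 in the lower group, and of 0.402 (0.307 to 0.524) and 0.241 (0.177 to 0.326) in the upper one. *Mcl1* was at 0.689 (0.582 to 0.818) and 0.438 (0.378 to 0.510) of WT in the lower group and at 0.737 (0.652 to 0.835) and 0.443 (0.386 to 0.507) in the upper one. In both groups the 3 genes of KO1134 lay under WT, as did *Bcl2l11* and *Mcl1* of KO1308.

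*Bcl2*, which is higher in medulla than in cortex, was at 0.537 (0.356 to 0.821) of WT in KO1308 and 0.498 (0.356 to 0.717) in KO1134 in the lower group, and at 0.406 (0.310 to 0.529) and 0.283 (0.211 to 0.376) in the upper one. *Bid* of KO1134 was at 1.97 of WT in the lower group, from 8 UMIs in WT and with an interval that spans 1, and at 1.13 (0.751 to 1.74) in the upper one, and so was not below WT as it was in each area. *Bid* of KO1308 was at 2.69 (1.30 to 6.45) and 1.51 (1.01 to 2.29). In bins at 3000 CPM or more, which KO1308 and WT hold and KO1134 does not, *Bcl2l1* was at 160.0 CPM (145.3 to 175.8) in KO1308 and 114.3 CPM (110.4 to 118.4) in WT, a ratio of 1.40 (1.26 to 1.55). *Bid* there was at 69.9 CPM in KO1308 and 41.0 CPM in WT, a ratio of 1.70 (1.45 to 1.99). In CPM both genes were higher in KO1308 in these bins, where *Bcl2l11* was at 47.8 against 71.6 CPM and lower. Medulla made up 4.04% of the 2004 bins of KO1308 and 22.3% of the 15330 of WT, so area and section are mixed here too. TMM scaling, which divides ratios in cortex of KO1308 by 1.33, was not applied to these groups.

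**Figure D5:**
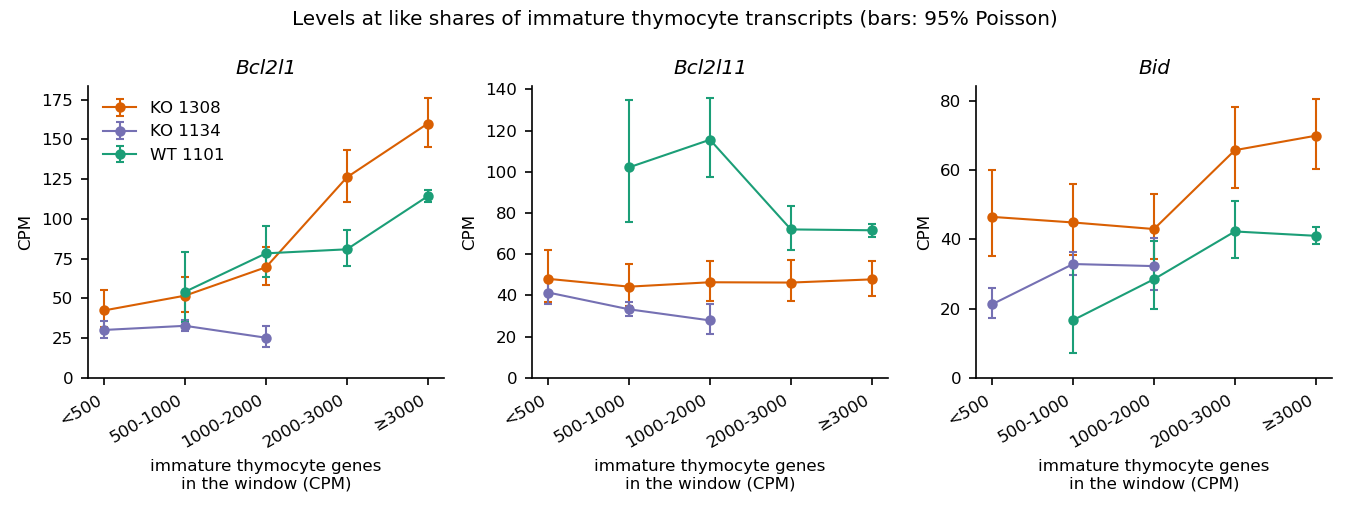
Levels of 3 members in CPM (vertical axes, from 0) in CD3-positive bins grouped by the CPM of 8 immature thymocyte genes in the surrounding window (horizontal axis), 1 line per section with 95% Poisson intervals, groups of at least 20 bins, which hold cortex and medulla in shares that differ between sections. *Bcl2l1* climbs with these genes in KO1308 and WT, and *Bcl2l11* of WT lies above both KO sections in each shared group.

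The make-up of the protective side also differed between sections. UMIs are not scaled to transcript length here, so the share of *Bcl2* in the UMIs of *Bcl2* and *Bcl2l1* is read between sections and not as a molar share. In cortex it was 21.5% (18.9 to 24.3, exact binomial) in KO1308, 54% (50.6 to 57.4) in KO1134 and 24.7% (23.3 to 26.2) in WT. In medulla it was 50.5% (45.7 to 55.3), 61.4% (57.0 to 65.7) and 38.8% (36.3 to 41.4). KO1134 had the highest share in both areas, and KO1308 stood with WT in cortex and above it in medulla. UMIs of the 3 protective members per UMI of the 4 death-promoting ones were 2.21 (2.06 to 2.38), 1.92 (1.81 to 2.04) and 2.77 (2.67 to 2.87) in cortex. In medulla they were 3.12 (2.82 to 3.46), 2.69 (2.47 to 2.93) and 3.01 (2.84 to 3.20), where WT overlapped both KO sections. *Mcl1* gave most of the protective UMIs, in cortex 1555 of 2503 in KO1308, 2127 of 2977 in KO1134 and 7446 of 10971 in WT.

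CD3-negative bins of the same areas gave similar levels, with CD3-positive bins at 0.733 to 1.26 of the CD3-negative ones over the members, areas and sections. In WT cortex *Bcl2l1* was at 0.832 (0.745 to 0.930) of its CD3-negative level, in KO1308 cortex at 1.20 (1.05 to 1.38) and in KO1134 cortex at 0.992 (0.796 to 1.25). *Rag1*, a gene of immature thymocytes, was at 0.974 (0.929 to 1.02) in WT cortex, 1.19 (1.11 to 1.28) in KO1308 and 1.22 (1.02 to 1.48) in KO1134. The CD3 rule therefore separated bins by less than 1.5-fold in *Rag1*, and the levels above describe the areas as much as their T cells.

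Other genes of the family, a list of 15, were more often past 1.5-fold higher than lower in the KO sections. In medulla 7 of the 12 with enough UMIs were past 1.5-fold higher (23.5% of all genes) and 2 lower (17.0%) in KO1308, and 7 (22.0%) and 3 (19.9%) in KO1134, with median ratios of 1.64 and 1.83. In cortex 6 of 13 were higher (26.6% of all genes) and 1 lower (10.5%) in KO1308. In cortex of KO1134, 6 of 12 were higher (24.7%) and 3 lower (20.9%). *Bcl2a1b*, a protective gene of activated lymphocytes and myeloid cells, was at 47.8, 91.2 and 28.8 CPM in medulla of KO1308, KO1134 and WT. *Bcl2a1a* was at 33.2, 62.0 and 11.8 CPM and *Bcl2a1d* at 80.5, 46.5 and 17.5 CPM, but these 3 genes are near-identical copies whose reads may have been split between them. *Bcl2l14* was at 5.32, 8.52 and 1.22 CPM in cortex. *Pmaip1* (Noxa), a BH3-only gene, was at 22.7, 25.1 and 14.0 CPM in medulla. Macrophage genes were also higher in KO medulla, at 880 and 1068 CPM against 622 in WT, and their part in these values was not tested.

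By area, 6 of the 13 genes of this list that were tested were called higher in medulla (18.7% of all genes) and 0 lower (11.8%). *Bcl2a1b* was higher by 1.98 ± 0.15 (adjusted p = 4.63e-07, edgeR), *Pmaip1* by 1.68 ± 0.19 (adjusted p = 1.76e-05) and *Bcl2l14* by 1.65 ± 0.27 (adjusted p = 0.00034) on the log2 scale. *Bax*, the partner effector of *Bak1*, was at 0.08 ± 0.11 (adjusted p = 0.623, edgeR). Its cortex levels of 60.8, 77.8 and 72.5 CPM in KO1308, KO1134 and WT gave ratios to WT of 0.838 and 1.07; it lies outside the rule for named genes and was chosen, after its values were seen, as the partner of *Bak1*.

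Apoptosis genes known as p53 targets, a list of 11, were more often past 1.5-fold lower than higher, except in cortex of KO1308. In medulla of KO1308, 4 were lower (17.0% of all genes) and 1 higher (23.5%), with a median of 0.777. In medulla of KO1134, 5 were lower (19.9%) and 1 higher (22.0%), with a median of 0.983. In cortex 2 were lower (10.5%) and 2 higher (26.6%) in KO1308, and 3 lower (20.9%) and 0 higher (24.7%) in KO1134. *Trp53inp1*, whose product aids p53 under stress, was at 149, 77.9 and 346 CPM in medulla of KO1308, KO1134 and WT. *Zmat3*, an RNA-binding p53 target, was at 29.5, 20.4 and 44.3 CPM and *Bbc3* (Puma), the BH3-only gene, at 22.7, 20.1 and 41.9 CPM there. In these 3 genes WT was the highest section, while *Pmaip1* of the same list was lowest in WT. By area, 4 of the 11 were called higher in medulla (18.7% of all genes) and 2 lower (11.8%). Among those higher were *Zmat3*, by 0.71 ± 0.16 (adjusted p = 0.00407, edgeR), and *Perp*, by 0.78 ± 0.13 (adjusted p = 0.000416, edgeR).

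Of caspase machinery, a list of 12, 0 to 1 genes were past 1.5-fold higher in any area of either KO section, where 22.0% to 26.6% of all genes were. In medulla 4 were past it lower in KO1308 (17.0% of all genes) and 2 in KO1134 (19.9%), and in cortex 2 (10.5%) and 3 (20.9%), with medians from 0.792 to 1.03. *Birc5*, a gene of dividing cells, was at 126, 74.1 and 198 CPM in medulla of KO1308, KO1134 and WT. *Apaf1*, the scaffold of the apoptosome, was at 43.7, 44.4 and 72.6 CPM there. Between the areas 2 genes were called higher in medulla (18.7% of all genes) and 4 lower (11.8%). *Birc3*, a target of NF-κB, was higher by 1.07 ± 0.12 (adjusted p = 1.96e-05, edgeR), *Birc2* was higher by 0.78 ± 0.13 (adjusted p = 0.000425) and *Birc5* differed by -0.93 ± 0.12 (adjusted p = 6.44e-05). *Cycs*, encoding cytochrome c, differed by -0.35 ± 0.10 (adjusted p = 0.0184, edgeR).

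Of the 9 death receptor genes, 1 to 2 were past 1.5-fold higher and 1 to 2 lower in any area of either KO section, with medians from 0.983 to 1.24. Over all genes, 22.0% to 26.6% were past it higher and 10.5% to 20.9% lower. *Fasl*, the ligand of Fas on cytotoxic cells, was at 23.0, 18.7 and 3.38 CPM in medulla of KO1308, KO1134 and WT and at 8.87, 7.06 and 2.27 CPM in cortex. Both KO sections were above WT in both areas. *Fasl* was higher in medulla by 1.13 ± 0.24 (adjusted p = 0.00211, edgeR) and *Tnfrsf1a* by 0.38 ± 0.13 (adjusted p = 0.0408, edgeR), the 2 genes of the list that were called. Over all genes, 18.7% were called higher in medulla and 11.8% lower.

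Of the 15 survival signals of thymocytes, 9 were past 1.5-fold lower in medulla of KO1308 (17.0% of all genes) and 9 in KO1134 (19.9%), the same 9 in both. There 0 were past it higher in KO1308 (23.5%) and 2 in KO1134 (22.0%), with medians of 0.514 and 0.590. Those past it higher in KO1134 were *Il7r* and *Jak3*, at 1.88 and 1.69 of WT, both outside the rule for named genes and named after their values were seen. In cortex 4 were lower (10.5%) and 3 higher (26.6%) in KO1308, and 6 lower (20.9%) and 2 higher (24.7%) in KO1134. *Cd28*, the costimulatory receptor, was at 77.4, 31.6 and 186 CPM in cortex and at 59.5, 37.5 and 192 CPM in medulla of KO1308, KO1134 and WT. *Tcf7*, a factor that sustains *Bcl2l1* in double-positive cells, was at 593, 359 and 820 CPM in cortex and 208, 188 and 622 CPM in medulla. In both genes WT was the highest section and KO1134 the lowest. By area, 6 genes of the list were called higher in medulla (18.7% of all genes) and 3 lower (11.8%). *Tcf7* differed by -0.97 ± 0.16 (adjusted p = 0.000319, edgeR). *Egr1* and *Nr4a3* were higher in medulla by 0.78 ± 0.12 (adjusted p = 0.000233, edgeR) and 1.58 ± 0.20 (adjusted p = 5.4e-05, edgeR). *Il7r*, whose signal maintains Bcl-2, was at 98.5, 325 and 54.9 CPM in cortex. The CPM intervals of *Bcl2* there overlapped in the 3 sections, although TMM scaling put KO1308 at 0.677 of WT. In medulla *Il7r* was at 236, 309 and 164 CPM, and KO1134 had the most *Il7r* and the least *Bcl2*. Signal through the receptor was not measured, and the part of *Il7r* or *Tcf7* in the levels of the members was not tested.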

How the data were processed

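Thymus sections of 2 KO mice and 1 WT mouse were analysed. The authors made the matrices with BSTMatrix and STAR on GRCm38 and deposited them as whole-number UMI counts for each gene in each spot, not normalised, with the position of each spot as coordinates in another unit, which were converted with the spot spacing of 4.8 µm. The sections listed 440671 to 1128950 spots. Spot codes repeat between sections (244006 to 903622 per pair), since they number the slide's positions. The authors took out folds of the tissue, and that step was not repeated.

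Spots were summed in 27 µm bins, kept at 300 or more genes, at most 30% mitochondrial UMIs and connected groups of at least 200 bins. Shares of cortical and medullary epithelial genes in each 7 × 7 window were divided by the section's mean share. Cortex needed a cortical value of at least 0.5 and above the medullary one, and medulla a medullary value of at least 1 and no lower than the cortical one. Median UMIs per used bin were 1241, 2955 and 1827 in cortex and 1000, 2747 and 1171 in medulla of KO1308, KO1134 and WT. The used bins held 3428741 to 23792829 UMIs per area and section. Intervals are exact Poisson for CPM, conditional binomial for ratios and binomial for shares, at 95%, and UMIs of neighbouring spots may not be independent. In ratios over all genes a count of 0 was set to 0.5. Sections were not replicated within a mouse.

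Medulla was compared with cortex by edgeR 4.0.16 (R 4.3.3; TMM, filterByExpr, glmQLFit, Benjamini-Hochberg 0.05) on 6 summed libraries. Both areas of a section come from the same mouse, so the section was a block, which leaves 2 residual degrees of freedom before edgeR shares the spread across genes; the p-values measure the spread between these 3 mice of mixed genotype. DESeq2 1.42.0 was an alternative. Tested on simulated data for this comparison, 80% of 200 genes changed 2-fold among 16995 were recovered, and 1.84% of calls were false. The simulation gave every gene the same dispersion and no area difference that varied between sections. These rates may therefore not hold for the real calls. Python 3.11.15 with numpy 2.4.6, scipy 1.17.1, pandas 2.3.3 and matplotlib 3.10.9 was used. Gene positions are from GENCODE M21 (99.8% of gene IDs matched) and promoters, 250 bases before to 50 after a start, from RefSeq.

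The members and lists were chosen with earlier results of these data known. Of each list, at most 5 genes are named, the largest among those past 1.5-fold in both KO sections in 1 direction or called between areas, and 3 genes most like each member; some genes these rules name are not reported here. Alternatives covered bin width, gene minimum, CD3 rule, thinning, window, area genes, lymph-node-like bins, bins near the border, denominator, scaling, filter, block, tool and leaving out each section. The authors' clustering and annotation were not used here.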

Additional observations from a re-analysis of the deposited data

How the results depend on the processing

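Of the 28 ratios of a member to WT, 8 were past 1.5-fold, and 7 to 10 were so under 12 alternatives. Thinning bins to 500 UMIs gave 14, with fewer UMIs behind each ratio. Of 364 recomputed ratios 325 stayed within the interval of the reported one and 22 fell on the other side of 1, in 10 of the 28 ratios. Of these, 19 belonged to 7 ratios whose reported interval spans 1, all of *Bcl2*, *Bcl2l1*, *Bad* or *Bak1*. The other 3 belonged to ratios whose interval leaves out 1, namely *Bid* of KO1134 in medulla (1.05) and *Bak1* of KO1134 in cortex (1.53) with thinned bins, and *Bad* of KO1308 in cortex (0.893) with TMM. Areas drawn from thymocyte genes moved *Bcl2l1* of KO1134 in medulla to 0.189, *Mcl1* to 0.905, *Bcl2l11* to 0.506 and *Bak1* to 0.634 of WT. *Mcl1* there was then no longer past 1.5-fold, and the cause of these shifts was not tested.

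Between areas 5501 genes and 3 members were called. Without the section as replicate block, that is without the pairing of areas by mouse, edgeR called 0 genes and 0 members, with 2141 genes at an unadjusted p under 0.05, and DESeq2, with the block, called 4021 genes. Thinning left 2071 genes, and areas from thymocyte genes 1021 genes and 0 members. Leaving out 1 section left 3754 to 4677 genes and 1 to 3 members. *Bak1* turned to higher in medulla with bins of 50 µm (0.024 on the log2 scale) and with at least 2 CD3 UMIs (0.092), and ranged from -0.345 without KO1134 to 0.069 without KO1308. *Bcl2l11* ranged from -0.057 without WT to 0.307 without KO1308. Neither was called in any of the 17 alternatives. No paired analysis was possible between KO and WT because the groups share no replicate numbers. With 59 UMIs of *Bak1* in medulla of KO1308, differences inside its interval (0.770 to 1.46 of WT) could not be detected.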
